A study of Mus musculus with 2 samples.

Results

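Muscle pericytes were chosen by their measured counts. In the muscle library, barcodes with at least 200 detected genes and at most 10% of UMIs (unique molecular identifiers, which count captured RNA molecules) from mitochondrial genes were kept. Members had at least 2 UMIs of Kcnj8, Abcc9 and Pdgfrb together, at least 1 UMI of Rgs5, fewer than 2 of Myh11, and none of Pdgfra or Ptprc. Of 2243 kept muscle barcodes, 74 were selected on this rule (3.30%, exact Clopper-Pearson 95% interval 2.60 to 4.12), out of 10437 kept barcodes in both libraries of the series. In the lung library 0 of 8194 kept barcodes met the rule, which allows a share of up to 0.0366%. All intervals given here cover counting error only.

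The series holds 2 single-cell 5' gene expression libraries from mice, 1 from gastrocnemius, a calf muscle, and 1 from lung. Both are labelled as CD45+ cells of TB mice with "CAC mouse model" as genotype; the labels do not spell out these abbreviations, give no age, sex or number of animals, and name no treatment, while the series' design text speaks of tumor bearing animals, of cachexia and of antibody treatments that the labels do not assign. Tissue was digested with Liberase and deoxyribonuclease, and CD45+ leukocytes were taken up with magnetic beads. Pericytes lack Ptprc, the gene of CD45, so the members are cells that the beads were not directed at, and their share is not that of the tissue. With 1 library per tissue there was no replicate and no test: every ratio below describes this library.

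Pericytes are mural cells that sit within the basement membrane of capillaries and contact the endothelium. Endothelial PDGF-B recruits them through the receptor encoded by Pdgfrb, and Notch3 signalling maintains them. Smooth muscle cells of arterioles and arteries share much of this programme and add a dense contractile apparatus, with the heavy chain Myh11 and the actin Acta2, so that mural cells along a vessel tree grade into one another.

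The muscle library held 5547 barcodes and 14056163 UMIs and the lung library 8481 barcodes and 34751225 UMIs. They shared 64 barcode sequences, of which 1 belonged to a member. The 74 members carried 250300 UMIs, from 822 to 10448 per cell with a median of 3162.5. The reference groups of the same library were 77 smooth muscle cells (Myh11 and Acta2 each at least 2 UMIs, median depth 3934), 831 endothelial cells (Cdh5 and Kdr together at least 2, median 3162) and 123 fibroblasts (Pdgfra at least 2, without Ptprc, median 5210). Cells that met the member or smooth muscle gates were left out of endothelium and fibroblasts, and fibroblasts had Cdh5 and Kdr together below 2. Members with endothelial UMIs were kept. A further 237 leukocytes (Ptprc at least 2, Cdh5 and Kdr together below 2, outside the smooth muscle gate) served as a guide to free RNA. Free RNA and a leukocyte's own expression cannot be told apart in these values.

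The gate genes were unevenly spread over the members, and 4 of them name the cell type. Rgs5, which encodes a brake on G-protein signalling, ran from 1 to 70 UMIs per member with a median of 9, and 36 members held at least 10. Kcnj8, the pore-forming subunit of the vascular ATP-sensitive potassium channel, had a UMI in 39 members (up to 30), and Abcc9, its sulphonylurea receptor subunit, in 61 (up to 18). Pdgfrb had a UMI in 56 members (up to 14). Rgs5 was at 4375 CPM (counts per 1000000 UMIs, summed over the members) against 4470 in smooth muscle, 220.2 in endothelium, 12.3 in fibroblasts and 13.3 in leukocytes. Kcnj8 stood at 787 CPM against 333 in smooth muscle and 2.85 in endothelium, with 0 counts in fibroblasts. Abcc9 stood at 971 CPM against 294 in smooth muscle, and Pdgfrb at 835 against 431. These levels were fixed in part by the rule and are a description.

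Kcnj8 and Abcc9 encode the subunits of one channel and are adjacent protein-coding genes on mouse chromosome 6. The promoters of Rgs5, Kcnj8 and Abcc9 are shown because these genes mark the members together, and Myl9 is shown as a contractile gene that differed little from smooth muscle. The sequences are RefSeq's for GRCm38.p6, the 250 bases before the annotated start, on the strand of the gene, with motif matches in capitals. Rgs5 lies at chr1:169655251-169655500 (plus strand), Kcnj8 at chr6:142571615-142571864 (minus), Abcc9 at chr6:142702275-142702524 (minus) and Myl9 at chr2:156775214-156775463 (plus).
Rgs5: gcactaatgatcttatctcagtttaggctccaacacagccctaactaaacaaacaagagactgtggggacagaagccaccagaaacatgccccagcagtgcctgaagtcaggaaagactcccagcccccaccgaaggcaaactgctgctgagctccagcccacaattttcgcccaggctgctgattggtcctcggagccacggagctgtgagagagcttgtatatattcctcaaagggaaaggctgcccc
Kcnj8: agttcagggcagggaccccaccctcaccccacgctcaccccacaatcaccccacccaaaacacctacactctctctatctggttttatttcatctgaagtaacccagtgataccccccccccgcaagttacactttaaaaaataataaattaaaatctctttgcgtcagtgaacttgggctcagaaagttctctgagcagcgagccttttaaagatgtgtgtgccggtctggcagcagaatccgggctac
Abcc9: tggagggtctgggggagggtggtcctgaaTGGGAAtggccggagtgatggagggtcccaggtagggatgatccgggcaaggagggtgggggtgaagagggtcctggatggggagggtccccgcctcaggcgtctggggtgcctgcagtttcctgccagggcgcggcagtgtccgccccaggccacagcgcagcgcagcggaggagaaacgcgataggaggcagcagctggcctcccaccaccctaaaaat
Myl9: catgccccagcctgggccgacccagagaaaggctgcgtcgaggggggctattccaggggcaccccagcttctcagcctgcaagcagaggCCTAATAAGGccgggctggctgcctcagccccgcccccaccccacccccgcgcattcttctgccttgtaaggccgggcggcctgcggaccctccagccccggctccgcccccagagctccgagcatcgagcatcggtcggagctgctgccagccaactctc
Both strands were searched for the CArG box, the site of serum response factor, and for TGGGAA, the core of sites for the Notch effector RBPJ. The CArG box was taken strictly as CC, 6 bases of A or T, and GG, so sites that depart from this pattern were not counted. The CArG box was found in Myl9, its first base 161 bases before the start, and in none of the other printed promoters. It occurred in 1 of 20 contractile genes with an entry (Myl9), in 0 of 18 other mural genes, and in 1.47% of all 32851 promoters of this length. TGGGAA was found in Abcc9, 221 bases before the start, and occurred in 10 of 18 other mural genes and 6 of 20 contractile genes, against 21.6% of all promoters. Entries were found for 18 of 29 other mural genes and 20 of 25 contractile genes. A gene counted if any of its entries matched, while the shares of all promoters count single entries, so the units differ. A match is a letter match and no more.

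Markers of other cell types were counted in every member, since the rule does not bar endothelial UMIs. Cdh5 or Kdr UMIs were present in 26 of 74 members, 15 of them with at least 2 and up to 20. The 15 endothelial markers summed to 14910 CPM in the members, against 31375 in endothelium, 10504 in smooth muscle and 1469 in fibroblasts, and reached 543 UMIs in 1 cell. A score of similarity to simulated doublets removed 5 of the 74 members, 1 of them among those 15, and 10 of the 77 smooth muscle cells. The total removed was set beforehand, at 100 of 2243 kept cells (4.46%). The part of doublets and free RNA in the results was not tested. A further 2 members held 84 and 356 UMIs of Dcn, the matrix proteoglycan decorin, with 62 and 71 of Fmod and 25 and 80 of Thbs4, tendon and fibroblast genes. Both had 1 Rgs5 UMI and no Kcnj8, Abcc9, Vtn or Notch3 UMI. Leukocyte markers summed to 104 CPM, with Ptprc, Fcer1g, Laptm5, Cd3e and Cd79a at 0, and the muscle stem cell genes Pax7, Myf5 and Myod1 were at 0.

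A stricter group of 46 members, without Cdh5 or Kdr UMIs and with fewer than 5 Dcn UMIs, was therefore set beside the 74; it was chosen after the values were seen. It held 128667 UMIs, a median of 2908 per cell, and 4049 CPM of endothelial markers with Cdh5, Kdr, Cldn5 and Tie1 at 0. The smooth muscle cells were not limited in this way. Below, values are given for the 74 and, where they matter, for the 46.

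**Figure D1:**
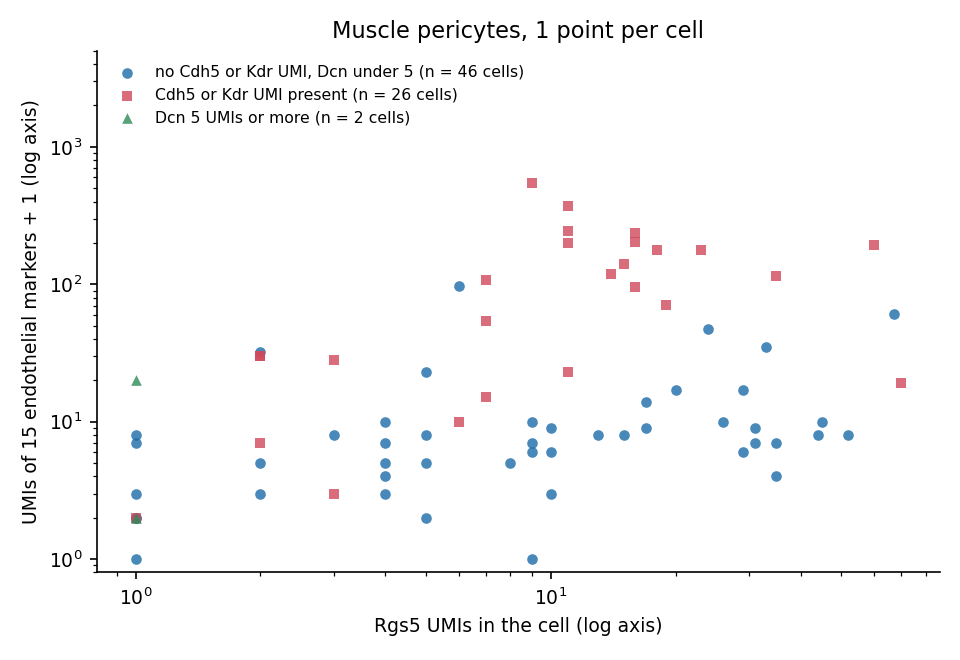
Each point is 1 of the 74 members, by its Rgs5 UMIs (x, log axis) and its UMIs of 15 endothelial markers plus 1 (y, log axis). The 26 members with Cdh5 or Kdr UMIs reach 543 endothelial marker UMIs, while the 46 stricter members stay at or under 96.

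Beyond the gate genes, the members carried a mural programme that smooth muscle cells shared and endothelium and fibroblasts mostly lacked. Notch3, the receptor through which endothelial Jagged ligands act on mural cells, was at 627 CPM (533 to 733) in the 74 and 1003 in the 46, against 774 in smooth muscle, 9.18 in endothelium and 3.70 in fibroblasts. It had a UMI in 70.3% of members (50.7% after thinning each cell to 1000 UMIs) and in 0.844% of leukocytes. Vtn, which encodes the adhesion glycoprotein vitronectin, was at 619 CPM against 481, 5.70 and 137, with a UMI in 51.4% of members (32.4% thinned) and 0.422% of leukocytes. Ndufa4l2 and Cox4i2, which encode alternative subunits of the respiratory chain, stood at 583 and 256 CPM, against 442 and 260 in smooth muscle and 10.8 and 4.43 in endothelium. Higd1b, a mitochondrial membrane gene, was at 160 CPM against 120 and 2.22, with 0 counts in fibroblasts. Ndufa4l2, Cox4i2 and Higd1b had few counts in members with low Rgs5, as given further on. Steap4, a metalloreductase gene, was at 663 CPM against 436 in smooth muscle, 8.54 in endothelium and 301 in fibroblasts.

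Genes were called by size where the ratio was at least 4, its exact 95% interval excluded 2 and the higher side held at least 30 counts; genes with at least 30 counts over both groups were compared. Of the 29 other mural genes on a list drawn up for this tissue, 14 of the 25 compared with endothelium were called higher in the 74 members, with a median log2 ratio of 5.62, where 2.41% of 9098 genes were called higher and the median was -0.04. The same number, 14 of 23, were called for the 46 members (2.18% of 8986). Against fibroblasts 15 of 22 were called higher (background 5.15% of 5801) and Anpep and Cd248, which pericytes and fibroblasts can both express, lower, Anpep with 7 counts against 121 and Cd248 with 4 against 213. In the 46 it was 14 of 20 (4.01% of 5284). Against smooth muscle 0 of 24 were called higher and 1, the transcription factor gene Tbx2, lower (36.0 against 170.5 CPM), with a list median of -0.18 in the 74. In the 46 none of 24 was called either way, Tbx2 was at 46.6 CPM, and the median was 0.36; Tbx2 was not called among cells with at least 1% ribosomal protein UMIs either, at a ratio of 0.362 (0.145 to 0.796).

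**Figure D2:**
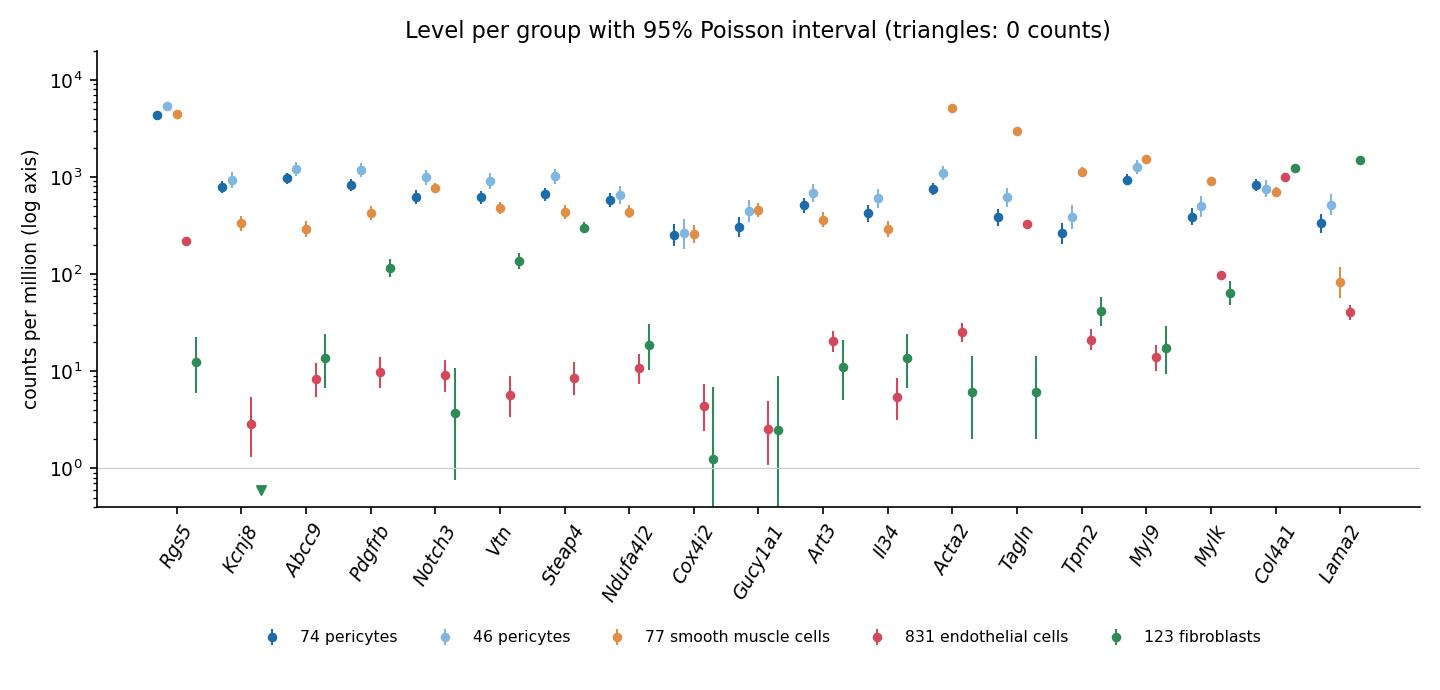
CPM (y, log axis) of 19 genes (x) in the 74 members, the 46 stricter members, 77 smooth muscle cells, 831 endothelial cells and 123 fibroblasts, with exact 95% Poisson intervals and triangles for 0 counts. From Rgs5 to Il34 the members and smooth muscle lie far above endothelium, with Kcnj8 and Abcc9 higher in the members, while Acta2, Tagln and Tpm2 are higher in smooth muscle.

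Several genes of vessel tone were far higher in the members than in endothelium. The soluble guanylate cyclase that receives nitric oxide was represented by Gucy1a1 at 308 CPM and Gucy1b1 at 296, against 459 and 296 in smooth muscle and 2.53 and 6.01 in endothelium. Its downstream kinase gene Prkg1 was at 2657 CPM against 3469 and 117. The endothelin receptor gene Ednra was at 176 CPM against 263 and 2.22, and the neuropeptide Y receptor gene Npy1r at 204 against 176 and 1.58. Kcne4, a potassium channel accessory subunit gene, was at 280 CPM against 129 and 1.58, although 50% of its member counts came from 2 cells. Of 48 vasoactive receptor and cyclic nucleotide genes, 8 of 22 were called higher than in endothelium (2.41% of all genes) and 1 lower (Calcrl; 1.13% of all genes). Against smooth muscle 0 of 20 were called higher and 1 lower, near the shares over all genes (1.03% and 2.14%). That gene was Adra1a, an alpha adrenergic receptor, at 32.0 against 212 CPM; in the 46 it was at 54.4 CPM and not called. Among the channel genes that the rule did not use, 5 of 16 were called higher than in endothelium, against 2.41% of all genes. Compared with smooth muscle, 0 of 18 such channel genes were called higher and 2 lower, where 1.03% and 2.14% of all genes were. These were Kcnma1, the large-conductance calcium-activated potassium channel, and Ryr2, the ryanodine receptor. Kcnma1 was at 71.9 against 316 CPM, and Ryr2 had 0 counts in the members against 35, at least 8.16-fold lower (floor of 3 counts over the group); both calls held in the 46. Among cells with at least 1% of UMIs from ribosomal protein genes, a split described further on, none of these calls remained: Kcnma1 had 12 counts in 42 members and 10 in 51 smooth muscle cells (69.8 and 37.8 CPM), Ryr2 had 0 and 3, and Adra1a 6 and 12.

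Contractile genes were present at lower levels than in smooth muscle. Myh11 and Acta2 selected the groups and count as no result. The groups were thus split on genes of this programme, so lower levels of its other genes were set in part by the rule. A gene called lower also needed at least 30 counts in smooth muscle. The counts of calls below are a description. Tagln, which encodes the actin-binding protein transgelin, was at 384 CPM (311 to 468) in the 74 members and 622 in the 46, against 3014 in smooth muscle, a ratio of 0.127 (0.102 to 0.157) and 0.206 (0.162 to 0.259). It had UMIs in 25 of 74 members, up to 20 in a cell. Tpm2, a tropomyosin, was at 264 and 389 CPM against 1141, and Mustn1, a small muscle protein gene, at 236 and 187 against 990. Myl9, the regulatory light chain of myosin, differed far less, at 939 and 1275 CPM against 1521, and its kinase gene Mylk stood at 392 and 505 against 900. Of 20 compared contractile genes other than the gate genes, 0 were called higher and 6 lower in the 74 members (Tagln, Tpm2, Myocd, Itga8, Mustn1 and Flna), where 1.03% of 3884 genes were called higher and 2.14% lower. In the 46 members 3 were called lower (Tagln, Itga8 and Mustn1; background 1.01% of 3172 higher and 2.96% lower). Against endothelium 8 of 18 were called higher, where 2.41% of all genes were, with Myl9 67.4-fold higher (48.7 to 95.3).

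**Figure D3:**
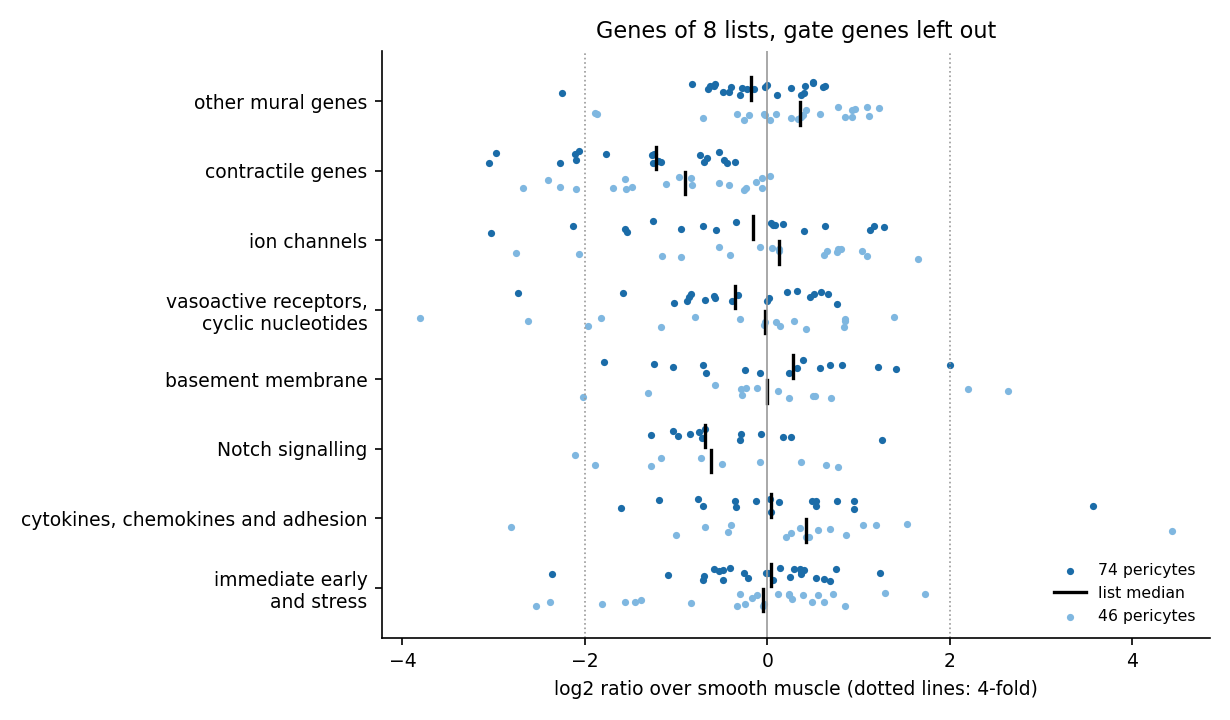
Each point is a gene of 1 of 8 lists, by its log2 ratio in the 74 members or the 46 stricter members over smooth muscle (x), with black bars at the list medians and dotted lines at 4-fold. Contractile genes lie left of 0 with a median of -1.22 in the 74 and -0.90 in the 46, and the other lists centre nearer 0. Myh11 and Acta2 split the groups, so the contractile ratios were set in part by the rule.

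The limit on Myh11 cut through a graded distribution. Without it 149 kept cells met the remaining member gates, with 37 at 0 Myh11 UMIs, 37 at 1, 17 at 2, 14 at 3, 15 at 4, 19 at 5 to 9 and 10 at 10 or more. The reference groups were not separate from them: 38 of the 77 smooth muscle cells also met the remaining member gates, and 60 held Rgs5. Acta2 was at 468 CPM in members without Myh11 and 1089 in those with 1 UMI, and at 1995 in the cells with 2, just outside the limit. It was 1254 to 1420 CPM between 3 and 9 Myh11 UMIs and 7213 at 10 or more.

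Per cell, the 24 contractile genes other than Myh11 took from 0.0964% to 2.98% of a member's UMIs, with a median of 0.662%, and from 0.256% to 8.74% in smooth muscle, with a median of 1.59%. Members and smooth muscle cells overlapped, and 3 of 74 members lay above the smooth muscle median. The 24 genes include Acta2, of which a smooth muscle cell had to hold at least 2 UMIs. The difference in shares was therefore set in part by the rule. At the other gates, 17 members had exactly 2 UMIs of Kcnj8, Abcc9 and Pdgfrb, and 30 cells with 1 UMI lay just outside. Vtn was at 141 CPM in the 17 against 70.3, Notch3 at 141 against 132 and Rgs5 at 2044 against 1908. Acta2 was lower inside, at 226 against 563. Cdh5 and Kdr together reached at least 2 UMIs in 8 of the 17 and 14 of the 30. The 9 members with 1 Rgs5 UMI had Notch3 at 547 CPM and Vtn at 45.6, and the 41 cells with none had them at 124 and 17.7. The 9 had a median depth of 1170 UMIs and include the 2 Dcn-bearing members, with 5392 and 8299 UMIs. Those 2 held no Notch3 or Vtn UMI, which lowers both levels in the 9.

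The members differed widely in their share of ribosomal protein transcripts. Ribosomal protein genes, whose transcripts are abundant in the cytoplasm, took under 1% of UMIs in 32 of 74 members (43.2%, 31.8 to 55.3), 1% to 2% in 1 member and at least 2% in 41. The share of cells under 1% was 33.8% in smooth muscle, 24.4% in endothelium, 27.6% in fibroblasts and 13.9% in leukocytes, so such cells were present in each group. The 32 members had a median depth of 2453.5 UMIs, against 3667.5 in the other 42. Malat1, a nuclear non-coding RNA, was at 24968 CPM in the 32 and 6273 in the 42, and Prkg1, a long gene, at 7037 and 663. Notch3 was at 1137 and 395 CPM, and among the stricter members at 1137 and 876. Vtn went the other way, at 153 and 831 CPM, as did Actb, at 332 and 3267. Kcnj8 had a UMI in 6 of the 32 and in 33 of the 42, and Acta2 in 2 and 27. The cause of the split was not tested.

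**Figure D4:**
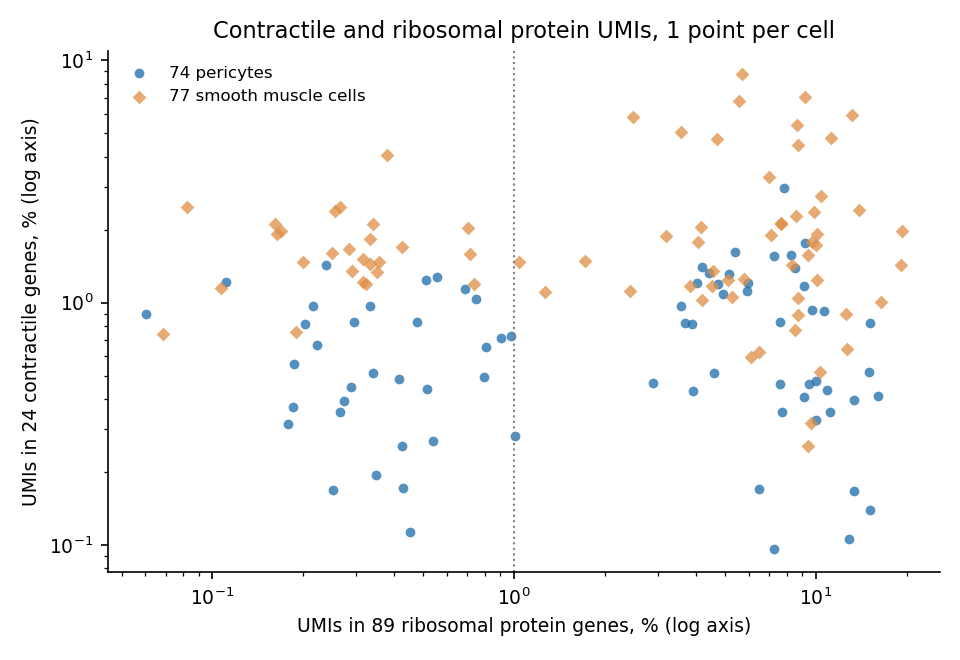
Each point is a member or a smooth muscle cell, by the share of its UMIs in 89 ribosomal protein genes (x, log axis) and in 24 contractile genes other than Myh11 (y, log axis), with a dotted line at 1%. Both groups split into cells under and over 1% ribosomal protein UMIs, and on either side the members extend to lower contractile shares than smooth muscle. The 24 genes include Acta2, which selected the smooth muscle cells, so the contractile shares were set in part by the rule.

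The same split ran along Rgs5 within the 46 stricter members, in bands chosen after the values were seen. The bands were cut on raw UMIs and differed in depth, with medians of 1441, 3573.5 and 3043 UMIs, so shares of cells with a UMI are not comparable between them. The 15 cells with 1 to 4 Rgs5 UMIs had 0.384% ribosomal protein UMIs and 0 Kcnj8 counts, with Abcc9 at 1459 CPM, Pdgfrb at 1032 and Notch3 at 1103 (750 to 1566). The 10 cells with 5 to 9 had 0.684%. In the 21 cells with at least 10 Rgs5 UMIs the ribosomal share was 6.05%, Kcnj8 was at 1783 CPM, Abcc9 at 1322, Pdgfrb at 1261 and Notch3 at 830 (624 to 1083). The levels of Kcnj8, Abcc9 and Pdgfrb were set in part by the rule, since a member without Kcnj8 had to carry at least 2 UMIs of the other genes, and nothing is read from them. Outside the rule, the Notch3 intervals of the first and last bands overlapped, while Vtn was at 107 and 1660 CPM and Myl9 at 71.2 and 2460. In the same 2 bands Ndufa4l2 was at 35.6 and 1261 CPM, Cox4i2 at 35.6 and 492, and Higd1b at 35.6 and 430. The stress and immediate early genes, which tissue digestion is known to induce, took 0.698%, 0.417% and 4.93% of UMIs in the 3 bands, and Fos was at 285, 225 and 6180 CPM.

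**Figure D5:**
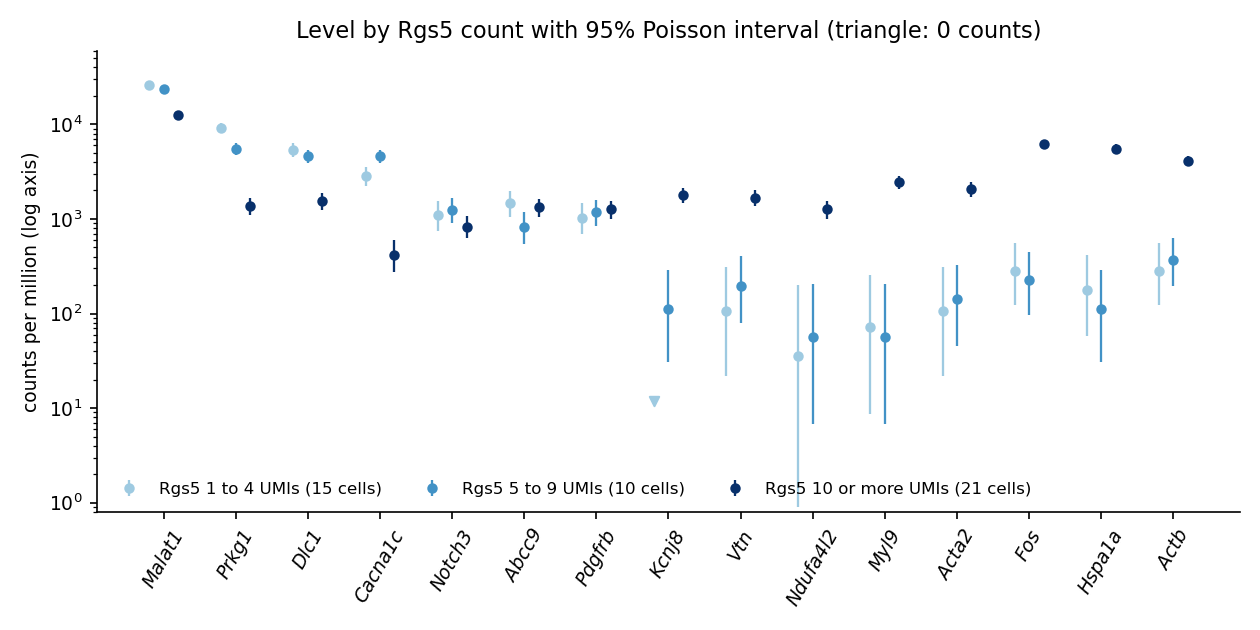
CPM (y, log axis) of 15 genes (x) in stricter members with 1 to 4 (15 cells), 5 to 9 (10 cells) and at least 10 Rgs5 UMIs (21 cells), with exact 95% Poisson intervals and a triangle for 0 counts. Malat1, Prkg1, Dlc1 and Cacna1c are lowest in the last band, Notch3 has overlapping intervals in the first and last bands, and Vtn to Actb are highest in the last band; Kcnj8, Abcc9 and Pdgfrb are genes of the selection rule.

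Restricting both sides to cells with at least 1% ribosomal protein UMIs left 42 members, 21 of them stricter, and 51 smooth muscle cells. The 21 were also limited in Cdh5, Kdr and Dcn UMIs and the 51 were not, so that filter fell on the members alone. Many ratios differed between the 42 and the 21 by over 1.5 times. Tagln was at 1102 CPM in the 21 against 3795 in smooth muscle, a ratio of 0.290 (0.226 to 0.369) that was 0.135 (0.107 to 0.168) over the 42, and the Tpm2 ratio was 0.478 and 0.240. Over the 42, Mustn1 and Flna were at 0.264 and 0.260, just short of 4-fold, and Itga8, with 3 counts against 16, was too sparse to compare. Myl9 was at 2416 against 1960 CPM, a ratio of 1.23 (1.03 to 1.47), while over all 42 members with that share the ratio was 0.685 (0.584 to 0.802). Vtn was at 1646 against 632 CPM, a ratio of 2.60 (2.03 to 3.34) that was 1.32 (1.04 to 1.65) over the 42 members. The Steap4 ratio was 2.41 (1.83 to 3.14) in the 21 and 1.25 over the 42, where its interval included 1, and that of Kcne4 5.15 and 2.71. The Notch3 ratio was 1.24 (0.906 to 1.67) in the 21 and 0.559 (0.417 to 0.741) over the 42. Kcnj8, a gate gene, was 3.89-fold higher in the 21 and 2.47-fold over the 42.

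The genes with the largest ratios over smooth muscle were mostly carried by a few members: of 22 genes called higher and examined one by one, 14 had at least 50% of their member counts in 2 cells. In rank order they were Dcn, Angptl7, Igfbp6, Thbs4, Serpinf1, Car4, Fmod, Prg4, Clec3b and Kirrel3. Dcn had 447 counts in the 74 and 4 in the 46, Fmod 133 and 0, Angptl7 94 and 0, and Car4, an endothelial carbonic anhydrase gene, 47 and 3. Of 40 genes called higher in the 74 and 32 in the 46, 12 were shared, which is 30% of the first and 37.5% of the second. The genes with the smallest ratios were Olfr78, Map3k7cl, Mamdc2, Slc6a17, Pdlim3, Grip2, Cdh6, Ldb3, Olfml2a and Fgf1. Olfr78, an olfactory-family receptor gene, had 1 count in the members against 95, a ratio of 0.0150 (0.000377 to 0.0859), and Pdlim3, which encodes a Z-line protein, 3 against 127, a ratio of 0.0338 (0.00687 to 0.101). Of 83 genes called lower in the 74 and 94 in the 46, 51 were shared. In the 46, 1 count each of the endothelial genes Sox17 and Mmrn2 stood against 73 and 55 in smooth muscle, ratios of 0.0381 (0.000951 to 0.219) and 0.0505 (0.00126 to 0.294); smooth muscle itself held endothelial markers.

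Ratios over endothelium were led by Angptl7, Fmod, Kcne4, Npy1r, Slc4a8, Gucy1a1, Vtn, Mark1, Lin7a and Pla2r1. Lin7a, a scaffold protein gene, was at 539 CPM against 6.01, an 89.7-fold ratio (55.3 to 154). Those over fibroblasts were led by Rasd1, Bcam, Cox4i2, Notch3, Npy1r, Car4, Arhgdib, Gucy1a1, Itga7 and Pgm5. Bcam went from 66 to 13 counts in the 46. In total 1.13% of genes were called lower than in endothelium (3.24% for the 46), led by the venous genes Selp (3 counts against 2067, a ratio of 0.0183 (0.00378 to 0.0536)) and Ackr1, with Tll1, Cmah, Csf2rb2, Spint2, Mall, Thsd7a, Plscr1 and Tnfrsf11a. Against fibroblasts 5.33% were called lower (5.34% for the 46), led by the chemokine gene Cxcl14 (0 counts against 2328, at least 239.6-fold lower), Lvrn, Smoc2, Inmt, Adamts5, Apod, Bmper, Vcan, Angptl1 and Postn.

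Basement membrane genes were expressed in the members, and most fibrillar matrix genes were lower than in fibroblasts. Col4a1, a chain of the network collagen of basement membranes, was at 831 CPM against 705 in smooth muscle, 1010 in endothelium and 1230 in fibroblasts. Timp3, a matrix-bound protease inhibitor, was at 2345 against 1789, 1273 and 426, and Sparc, a collagen-binding glycoprotein, at 1914 against 1194, 1147 and 3135. Lama2, a laminin chain gene, was at 336 CPM against 83.9 in smooth muscle and 1494 in fibroblasts, and Col5a3 at 216 against 81.1 and 339. Lama2 was the 1 basement membrane gene of 16 called higher than in smooth muscle, against 1.03% of all genes, and in the 46 Col5a3 was called too. Among cells with at least 1% ribosomal protein UMIs the Lama2 ratio was 1.00 (0.486 to 2.00) in the members and 1.91 (0.840 to 4.08) in the 21 stricter ones, that of Col5a3 was 0.946 (0.474 to 1.83) and 2.00 (0.942 to 4.03), and both calls were lost. Of 22 fibrillar collagen and fibroblast matrix genes, 16 were called lower than in fibroblasts, where 5.33% of all genes were. In the 46 it was 18, where 5.34% of all genes were. Col1a1 was at 120 CPM in the 74 and 46.6 in the 46, against 4321.

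Pdgfb, the ligand, was at 55.9 CPM in the 74 and 15.5 in the 46, against 223 in endothelium, while its receptor gene was a gate. Of 17 Notch pathway genes compared with endothelium, Notch3 alone was called higher and 0 lower, where 2.41% and 1.13% of all genes were. In the 46, which were chosen without Cdh5 or Kdr UMIs, Notch4, Jag2 and Dll4 were called lower, where 3.24% of all genes were. Against smooth muscle 0 of 13 Notch genes were called, which at 1.03% and 2.14% of all genes called says nothing particular of the list, and Hes1, a target, was at 248 against 506 CPM. Fgf1, a growth factor gene, was called lower than in smooth muscle, with 2 counts against 56, a ratio of 0.0510 (0.00603 to 0.193). Of 14 angiopoietin and VEGF genes outside the gates, 2 were called lower than in endothelium, where 1.13% of all genes were. These were Tek, at 71.9 against 345 CPM, and Vegfc, with 1 member count and a ratio of 0.0784 (0.00197 to 0.443). Tgfb2 and Smad3 were the 2 of 24 TGF-beta and BMP genes called lower than in smooth muscle, where 2.14% of all genes were. All 9 member counts of Tgfb2 came from 2 cells. Neither gene was called in the 46 or had counts in the 42 members with at least 1% ribosomal protein UMIs.

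Among immune-related genes, 1 of 17 cytokine, chemokine and adhesion genes (Ccl2) and 2 of 8 interferon response genes (Ifitm1 and Isg15) were called higher than in smooth muscle, against 1.03% of all genes. Il34, a ligand of the macrophage receptor Csf1r, was at 423 CPM against 294 in smooth muscle, 5.38 in endothelium and 13.6 in fibroblasts, with a UMI in 62.2% of members (33.8% thinned) and in 1.27% of leukocytes. Ccl2, a monocyte chemokine, was called higher than in all 3 references, at 463 CPM against 39.1, 13.6 and 83.9, but was found in 9 members (12.2%, against 12.7% of leukocytes) and 82.8% of its counts came from 2 cells. Cxcl10 was carried likewise, with 50 of 52 counts in 1 cell. Ifitm1, an interferon-inducible membrane protein gene, was at 539 CPM against 109, 6.33 and 11.1, in 21 members (28.4%, 15.5% thinned), and at 550.4 CPM in leukocytes (22.4%, 17.7% thinned). Isg15 was at 320 against 75.5 in smooth muscle, with 44 of its 80 counts in 1 cell. Of the 9 compared MHC presentation genes 0 were called against smooth muscle. Ctsl, the cathepsin L gene named in the series' title, was at 408 CPM in the 74 and 264 in the 46, against 173 in smooth muscle, 560 in endothelium and 1039 in fibroblasts; no cathepsin or inhibitor gene was called against smooth muscle or endothelium. Of 26 immediate early and stress genes 0 were called higher and 1, Nr4a2, lower. In the 74, glucocorticoid response (20 compared), hypoxia and glycolysis (17) and oxidative phosphorylation genes (12) had 0 calls against smooth muscle, and only 2 cell cycle genes had enough counts to compare. With 1.03% and 2.14% of all genes called, counts of 0 or 1 in lists of this length are near the background.

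Csmd1, a large membrane protein gene, was also called higher than in all 3 references, at 967 CPM against 123, 35.4 and 197. Its UMIs were in 11 members, up to 53 in a cell. Among members with at least 1% ribosomal protein UMIs it was at 29.1 CPM, against 3027 in the others.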

How the data were processed

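The 2 deposited matrices (1 library from muscle, 1 from lung) hold UMI counts per gene and barcode; per the submitters' processing notes they were made with Cell Ranger 7.0.1 and GRCm39. The deposited counts are not normalized. Counts were summed over the cells of a group and given as counts per 1000000 UMIs (CPM), with exact 95% Poisson intervals; ratios have exact conditional binomial intervals. Intervals cover counting error only, and no test was made. Shares of cells were repeated after thinning to 1000 UMIs (seed 1).

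The pericytes, reference groups and gene lists were chosen with earlier results of these data known. Named genes are those of the gates, the 10 largest ratios in each direction per reference (without mitochondrial, ribosomal protein, Gm and Rik genes) and members of 30 lists. The printed promoters, the Rgs5 bands and the stricter members were picked after values were seen. Doublets were left in, and removed in an alternative by similarity to simulated doublets. Of 14 alternatives, 4 were chosen after seeing the data. Python 3.11.15, numpy 2.4.6, scipy 1.17.1, pandas 2.3.3, scikit-learn 1.9.0 and matplotlib 3.10.9 were used, and edgeR 4.0.16 for TMM factors only. The calling was run on simulated sums with planted changes well over 4-fold and counting error only. The simulation had no spread between cells, so it cannot speak for calls near 4-fold or carried by a few cells. Promoters are RefSeq's on GRCm38.p6, matched by symbol.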

Additional observations from a re-analysis of the deposited data

Results flagged for a closer look

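Outside the kept barcodes, 56 muscle barcodes over the limit of 10% mitochondrial UMIs met every other pericyte gate, a signal in data that the comparisons do not use. Rgs5 stood at 3980 CPM in them, Notch3 at 611, Vtn at 328 and Acta2 at 441, with a median depth of 1377 UMIs.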

How the results depend on the processing

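The number of pericytes followed the gates: 34 with a mitochondrial limit of 5%, 110 with 20%, 130 with none, 48 without Cdh5 and Kdr UMIs, 46 when Dcn was limited too, 37 with Myh11 at 0 and 42 with at least 1% ribosomal protein UMIs. Genes called higher than in smooth muscle numbered 40, and 23 with at least 3 Rgs5 UMIs, 25 with Myh11 at 0 and 90 with a minimum of 10 counts; genes called lower numbered 83, and 37 with the ribosomal limit. Against endothelium, 219 higher became 128 with the 5% limit, 105 with Myh11 at 0, 464 with 10 counts and 112 with the ribosomal limit. The 103 lower became 52 with the 5% limit, 304 without Cdh5 and Kdr UMIs, 291 in the 46, 59 with Myh11 at 0 and 52 with the ribosomal limit. Against fibroblasts, 299 higher became 191 with the 5% limit, 153 with Myh11 at 0 and 553 with 10 counts. The causes of these changes were not tested. With the ribosomal limit the Csmd1 log2 ratio reversed, to -0.48 over endothelium and -0.98 over fibroblasts. Of 2129 gene ratios under the 14 alternatives, 1863 stayed within the counting interval of the reported value, 264 left it, and 2 called ratios reversed. The minimum of 10 counts changes calls but no ratio, so its ratios stayed by construction. TMM scaling multiplies all ratios over a reference by a common factor, as does leaving mitochondrial genes and Rn18s, a ribosomal RNA gene, out of the totals. The 1863 are therefore no measure of stability. No paired analysis was possible because there is 1 library per tissue and no replicate. With 74 cells, genes under 30 counts over both groups were not compared.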
